A study of Cricetiscus sungorus with 12 samples.

Results

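The heat shock proteins and cochaperones described here are 35 genes, chosen by a list of mouse GeneIDs that names the HSP70, HSP110, HSP90, small heat shock, mitochondrial and HSP40 families, the heat shock factors and a set of cochaperones. They are 35 of the 17191 GeneIDs quantified in the hypothalamus of the Djungarian hamster. All 35 were found in each of the 12 samples, and all 35 had at least 10 counts over the samples of each comparison, so none was lost to a filter on low counts.

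The study asked what differs in the hypothalamus in spontaneous daily torpor and in adaptation to winter-like day length. PolyA RNA was sequenced from 12 adult outbred hamsters in 3 groups of 4. LP-NT hamsters (2 males, 2 females) stayed in long photoperiod with 16 h of light and 8 h of darkness and had normal body temperature. SP-NT hamsters (2 males, 2 females by label) and SP-HT hamsters (3 males, 1 female) were moved to short photoperiod with 8 h of light and 16 h of darkness; SP-NT were sampled at normal body temperature on a day without torpor, and SP-HT while hypothermic in torpor. All 3 groups were sampled at Zeitgeber time 4, that is 4 h after lights on. The SP hamsters carried implanted temperature transmitters and the LP hamsters did not, so photoperiod and implantation cannot be told apart.

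Heat shock proteins are chaperones: they bind unfolded stretches of other proteins, use ATP to let them fold, and hold or pass on those that do not. HSP40 proteins deliver clients to HSP70, HSP110 proteins and BAG proteins release nucleotide from it, and other cochaperones hand clients on to HSP90. The factor HSF1 switches on the inducible members when unfolded proteins build up, as on warming, while the constitutive members are abundant in neurons at all times.

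Total expected counts per sample were 22387368, 22710560, 21732663 and 21791035 in LP-NT replicates 01, 02, 03 and 05. They were 23886861, 23996023, 22860110 and 24186918 in SP-NT replicates 19, 36, 37 and 38, and 23018123, 21514579, 22150531 and 20204979 in SP-HT replicates 02, 10, 26 and 33. Depth was thus alike across the hamsters, with SP-HT 33 the shallowest. The RNA held transcripts of hypothalamic peptides, with a median of 536 TPM (a level per transcript length, scaled to the same total in each sample) for *Avp*, 218 TPM for *Sst*, 86.0 TPM for *Trh*, 49.7 TPM for *Pomc* and 37.0 TPM for *Npy* over the 12 samples.

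A pair of libraries stood out before any comparison of the chaperones. LP-NT replicate 01 had the highest normalized count (CPM, the count scaled by library total and TMM factor) of the 12 samples for 20.9% of the 16380 GeneIDs with 10 counts or more, and the lowest for 22.9% of them. No other sample was highest for more than 9.86% of them. The comparisons that use LP-NT are therefore given with and without replicate 01. SP-NT replicate 19 is labelled male, but 3 records that had at least 163 counts in each of the 6 other males had at most 1 count in it and at most 5 in the 5 females. Whether the label is wrong was not tested. If this hamster was female, SP-NT was less evenly matched by sex to both other groups than labelled. Sex would then be partly confounded with torpor and with photoperiod. Directions in torpor follow the labels SP-HT and SP-NT; of the 389 GeneIDs that differed between these groups, the mean of LP-NT was nearer to SP-NT for 370 (95.1%). For every gene that could be matched by its values to the study's own table of chosen genes, the sign of the torpor difference under the deposited labels was opposite to the sign printed there. These genes were matched on their photoperiod difference with its sign, which rests on SP-NT. Of 66 names, 55 matched 1 GeneID with the labels as deposited and 4 with SP-HT and SP-NT exchanged, a check chosen after seeing the data. The study's own record of body temperature also gives low values to the hamster numbers labelled SP-HT. An exchange that took place before those records were made, which would touch all 3 comparisons, was not tested.

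Chaperone transcripts made up between 0.935% and 1.21% of all TPM. *Hsp90aa1* (GeneID 15519), the inducible cytosolic HSP90, had the highest mean level of the 35 genes per length, at 3175 TPM over 12 samples, and held 31.6% of their summed TPM. *Hspa8* (GeneID 15481), the constitutive HSP70 that also strips clathrin coats from vesicles, followed with 1939 TPM and 19.3%, and *Hsp90ab1* (GeneID 15516), the constitutive HSP90, with 1107 TPM and 11.01%. By CPM, which is not per length, the order differed, with *Hspa8* and *Hsp90ab1* above *Hsp90aa1* in each group mean. At the low end, *Hspa1b* had a mean level of 1.51 TPM. Of the 35 genes, 17 were among the most abundant 10% of GeneIDs by mean TPM.

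**Figure D1:**
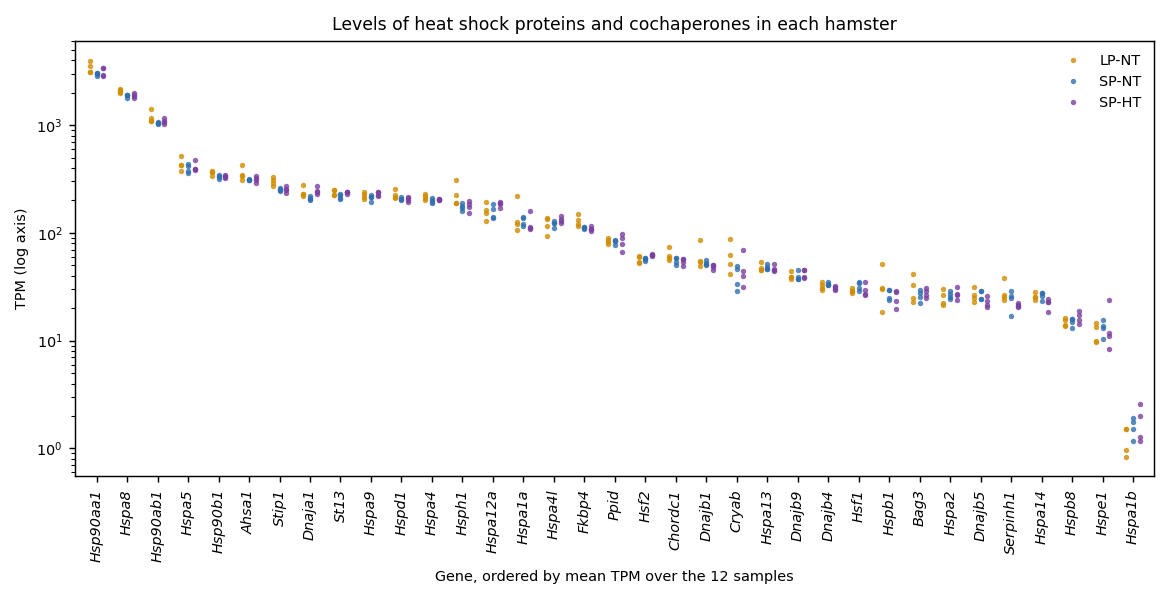
Level of each of the 35 genes (TPM, log axis) in each of the 12 hamsters, with 1 point per hamster and colours for LP-NT, SP-NT and SP-HT. Genes run from *Hsp90aa1* with a mean of 3175 TPM to *Hspa1b* with 1.51 TPM, and the colours lie close together within most genes while the levels of different genes lie far apart.

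Summed over the 35 genes, the level was 12056 TPM in LP-NT 01, and 9907, 10890.4 and 10040.3 TPM in LP-NT 02, 03 and 05. It was 9346, 9731, 9573 and 9466 TPM in SP-NT 19, 36, 37 and 38, and 9521, 9369, 10144 and 10522 TPM in SP-HT 02, 10, 26 and 33. LP-NT 01 was the highest of the 12 hamsters, every LP-NT hamster was above every SP-NT hamster, and SP-HT overlapped both other groups. The mean sums were 10724 ± 990 TPM in LP-NT, 9529 ± 163 TPM in SP-NT and 9889 ± 539 TPM in SP-HT (SD, n = 4 each), and 10279 TPM in LP-NT without replicate 01. These sums are a description of a chosen list and carry no test.

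**Figure D2:**
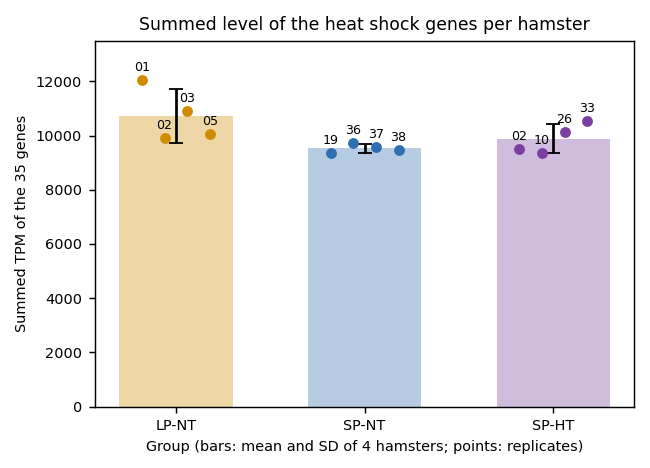
Summed level of the 35 genes per hamster (TPM, axis from 0), with points for hamsters, bars for group means and whiskers for the SD of 4 hamsters. LP-NT 01 is the highest point at 12056 TPM, and the SP-NT points lie between 9346 and 9731 TPM.

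Among the cytosolic HSP70 genes, *Hspa1a* (GeneID 193740), the stress-inducible member and a classic target of HSF1, was at 219 TPM in LP-NT 01 and at 106, 125 and 121 TPM in LP-NT 02, 03 and 05. It was at 120.2, 137, 116 and 139.8 TPM in SP-NT 19, 36, 37 and 38, and at 108.6, 114, 111 and 158 TPM in SP-HT 02, 10, 26 and 33. A single summer hamster was far above the other 11 for this gene, SP-HT 33 stood above the rest of its group, and the 3 groups overlapped. *Hspa1b* (GeneID 15511), its near-identical neighbour in the mouse genome, had 14 to 35 counts per sample against 2935 to 6208 for *Hspa1a*, and how reads of such like copies were shared out between these GeneIDs is uncertain. *Hspa2* (GeneID 15512), a member best known from the testis, ranged from 21.6 to 31.3 TPM. *Hspa8* had a level of 2066 ± 89.7 TPM in LP-NT (2031 TPM without replicate 01), 1863 ± 57.5 TPM in SP-NT and 1888 ± 87.3 TPM in SP-HT (SD, n = 4), which set it above *Hspa1a* in every sample.

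The more distant relatives of HSP70 had middling levels. *Hspa13* (GeneID 110920), a shortened HSP70 of the secretory pathway, ranged from 44.5 to 54.1 TPM, and *Hspa14* (GeneID 50497), a partner of chaperones on the ribosome, from 18.6 to 28.0 TPM. *Hspa12a* (GeneID 73442) is an atypical relative that is abundant in brain. Its CPM was 195, 234, 256 and 186 in SP-NT 19, 36, 37 and 38, and 249.7, 283, 281 and 268 in SP-HT 02, 10, 26 and 33, with 191, 229.6, 271 and 209 in LP-NT 01, 02, 03 and 05. The torpid hamsters were at the upper end, SP-NT 37 and LP-NT 03 reached into their range, and LP-NT 01 was the lowest of its group.

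Of the HSP110 genes, whose products release ADP from HSP70 and help it to pull aggregates apart, *Hspa4* (GeneID 15525) ranged from 189 to 232 TPM and *Hspa4l* (GeneID 18415) from 92.5 to 142 TPM, with LP-NT 01 the lowest of the 12 samples for *Hspa4l*. *Hsph1* (GeneID 15505) is the heat-inducible member. Its CPM was 391.6, 260.1, 304 and 268 in LP-NT 01, 02, 03 and 05, then 211, 233, 249 and 253 in SP-NT 19, 36, 37 and 38, and 246, 215, 249.5 and 263 in SP-HT 02, 10, 26 and 33. All 4 summer hamsters were above all 4 SP-NT hamsters, LP-NT 01 by the widest margin, and SP-HT overlapped both groups.

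In the endoplasmic reticulum, *Hspa5* (GeneID 14828) encodes BiP, the HSP70 of that compartment, and ranged from 361 TPM in SP-NT 37 to 518 TPM in LP-NT 01. *Hsp90b1* (GeneID 22027), its HSP90, ranged from 314 to 372 TPM. *Dnajb9* (GeneID 27362), a J-domain partner of BiP, ranged from 37.0 to 45.5 TPM. *Serpinh1* (GeneID 12406), a chaperone of collagen, was at 38.4 TPM in LP-NT 01 and at 23.7, 26.7 and 25.3 TPM in LP-NT 02, 03 and 05. It was between 20.5 and 22.4 TPM in SP-HT, and between 16.9 and 28.8 TPM in SP-NT.

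In mitochondria, *Hspa9* (GeneID 15526) encodes mortalin, the HSP70 that pulls imported proteins into the matrix. Its CPM was 274, 276, 265 and 250.5 in SP-NT 19, 36, 37 and 38, and 288, 317, 305 and 308 in SP-HT 02, 10, 26 and 33, with 290.4, 261, 291 and 271 in LP-NT 01, 02, 03 and 05. Every torpid hamster was above every SP-NT hamster, and LP-NT lay across the gap between them. *Hspd1* (GeneID 15510), the HSP60 chaperonin ring, ranged from 195 to 256 TPM. *Hspe1* (GeneID 15528), the lid of that ring, had only 27 to 59 counts per sample and ranged from 8.31 to 24.02 TPM; the highest of these, in SP-HT 02, came with an effective length of 183 bases and a CPM of 1.62, which was within the range of the other hamsters.

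The cytosolic HSP90 genes, whose products finish the folding of kinases and steroid receptors, were both highest in LP-NT 01. *Hsp90aa1* was at 3968, 3107, 3529 and 3101 TPM in LP-NT 01, 02, 03 and 05, at 2948, 3011, 3047 and 2834 TPM in SP-NT 19, 36, 37 and 38, and at 2833, 2941, 3366 and 3418 TPM in SP-HT 02, 10, 26 and 33. *Hsp90ab1* was at 1403, 1096, 1172 and 1085 TPM in LP-NT, at 1056, 1052, 1029 and 1052 TPM in SP-NT and at 1083, 1013, 1078 and 1159 TPM in SP-HT, in the same order of replicates. For both genes, each summer hamster was above each SP-NT hamster. The SP-HT hamsters ran from below the lowest SP-NT hamster into the LP-NT range, and for *Hsp90ab1* none of them lay within the SP-NT range itself. Transcripts of these 2 genes share a cluster of the de novo assembly, so how reads were divided between them is uncertain. In all, 11 members had transcripts in a cluster with another GeneID, among them *Hspa12a*, *Stip1*, *Hspa1a*, *Dnajb1* and *Hsf1*. The same uncertainty applies to them.

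The small heat shock proteins hold unfolded proteins without using ATP, and *Cryab* and *Hspb1* varied widely between hamsters of a group. *Cryab* (GeneID 12955), alpha-B crystallin, which is abundant in oligodendrocytes and astrocytes, was at 87.1, 41.8, 62.8 and 51.4 TPM in LP-NT 01, 02, 03 and 05. It was at 33.3, 46.0, 29.1 and 49.1 TPM in SP-NT 19, 36, 37 and 38, and at 39.5, 31.3, 69.3 and 44.5 TPM in SP-HT 02, 10, 26 and 33. LP-NT 01 was the highest, SP-HT 26 stood above the rest of its group, and all groups overlapped; in whole hypothalamus, fewer cells of a type and less RNA per cell cannot be told apart. *Hspb1* (GeneID 15507), HSP27, was at 51.7 TPM in LP-NT 01 and between 18.5 and 30.5 TPM in the 11 other hamsters. *Hspb8* (GeneID 80888), which works with BAG3 in the clearance of aggregates, ranged from 13.2 to 18.9 TPM.

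Among the cytosolic HSP40 genes, *Dnajb1* (GeneID 81489), the main heat-inducible partner of HSP70, was at 85.3 TPM in LP-NT 01 and between 45.4 and 55.8 TPM in the other 11 hamsters. *Dnaja1* (GeneID 15502), a constitutive partner, was at 279.9 TPM in LP-NT 01 and between 201 and 274 TPM in the others. *Dnajb4* (GeneID 67035), a relative of *Dnajb1*, ranged from 29.4 to 35.1 TPM. *Dnajb5* (GeneID 56323) is another relative of *Dnajb1*, with a CPM of 54.2, 42.9, 45.3 and 47.1 in SP-NT 19, 36, 37 and 38, 40.0, 33.6, 37.2 and 39.4 in SP-HT 02, 10, 26 and 33, and 53.2, 49.8, 44.1 and 41.5 in LP-NT 01, 02, 03 and 05. Every torpid hamster was below every hamster of both other groups for this gene.

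The factors that control the family were present at modest levels. *Hsf1* (GeneID 15499), which activates heat shock genes, ranged from 26.6 to 35.3 TPM, and *Hsf2* (GeneID 15500), which can bind the same sites together with HSF1, from 52.5 to 63.0 TPM. *Hsf2* was at 62.7, 61.4, 62.1 and 63.0 TPM in SP-HT 02, 10, 26 and 33, at 58.3, 55.1, 57.1 and 58.3 TPM in SP-NT 19, 36, 37 and 38, and at 52.5, 53.1, 60.0 and 61.0 TPM in LP-NT 01, 02, 03 and 05. The torpid hamsters lay above all others for *Hsf2*, by a narrow margin over LP-NT 05. The RNA level of a factor that is switched on by release from chaperones says little of its activity.

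Of the cochaperones, *Ahsa1* (GeneID 217737), which speeds the ATPase of HSP90, ranged from 288 to 422 TPM, *St13* (GeneID 70356), which steadies HSP70 bound to its client, from 206 to 249 TPM, and *Fkbp4* (GeneID 14228), an immunophilin of steroid receptor complexes, from 104 to 148 TPM. *Ppid* (GeneID 67738), a cyclophilin of the same complexes, ranged from 66.9 to 97.7 TPM, *Chordc1* (GeneID 66917), a partner of HSP90, from 49.4 to 73.4 TPM, and *Bag3* (GeneID 29810), which releases nucleotide from HSP70 and directs clients to autophagy, from 22.3 to 41.8 TPM. *Stip1* (GeneID 20867) encodes HOP, the adaptor that joins HSP70 to HSP90. Its CPM was 147, 118, 136 and 126 in LP-NT 01, 02, 03 and 05, then 103, 107, 104 and 114 in SP-NT 19, 36, 37 and 38, and 115, 106, 114 and 120.5 in SP-HT 02, 10, 26 and 33. All 4 summer hamsters were above all 4 SP-NT hamsters, LP-NT 02 by a narrow margin, and SP-HT overlapped both.

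**Figure D3:**
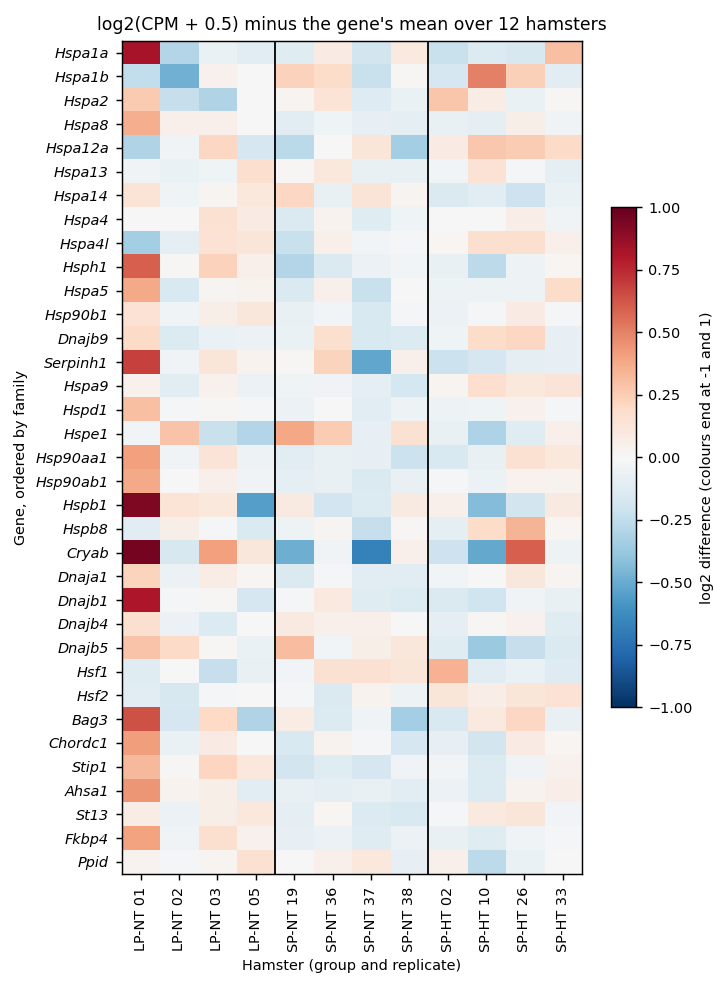
Difference of each gene (vertical, by family) from its own mean over the 12 hamsters (horizontal, by group), as log2(CPM + 0.5), with red for higher and blue for lower and colours that end at -1 and 1. The column of LP-NT 01 is the reddest, with 19 of the 35 genes at their highest there.

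Torpor was compared with normal body temperature within short photoperiod (SP-HT against SP-NT) to ask which chaperone transcripts differ in hypothermia. The differences were small. *Hspa9* and *Hspa12a* were somewhat higher and *Dnajb5* somewhat lower in torpor, and no member passed the adjusted p of 0.05 in edgeR. That is 0 of 35 members where 389 of 16195 GeneIDs passed (2.40%). Without adjustment, 8 members had p under 0.05, 6 higher and 2 lower, where 18.4% of GeneIDs did. DESeq2 called 3 of the 35 members, beside 6.96% of GeneIDs, so by neither tool were the members far from the background. A p that misses the threshold does not show that values did not differ.

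For *Hspa9*, all 4 torpid hamsters were above all 4 SP-NT hamsters, with a log2 fold change of 0.19 (SE 0.05, 95% interval 0.09 to 0.30) and an adjusted p of 0.0648 in edgeR. DESeq2 gave 0.20 and an adjusted p of 0.00599, and over all alternatives, DESeq2 without each hamster included, the adjusted p lay between 0.00359 and 0.251. In TPM the groups overlapped for *Hspa9*, with SP-HT 02 and SP-HT 26 just below SP-NT 19. For *Hspa12a*, 3 of 4 torpid hamsters were above all SP-NT hamsters and the other was above the SP-NT mean, with a log2 fold change of 0.31 (SE 0.09, 95% interval 0.11 to 0.52) and an adjusted p of 0.108 in edgeR. DESeq2 gave 0.32 and an adjusted p of 0.0254, edgeR without SP-NT replicate 37 gave 0.40 and 0.0482, and the alternatives spanned 0.000603 to 0.229. That fit without SP-NT 37 called 1 member where it called 1.60% of GeneIDs.

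For *Dnajb5*, all 4 torpid hamsters were below all 4 SP-NT hamsters, with a log2 fold change of -0.33 (SE 0.08, 95% interval -0.52 to -0.15) and an adjusted p of 0.0671 in edgeR. DESeq2 gave -0.33 and an adjusted p of 0.0128, edgeR scaled by library totals gave -0.38 and 0.0498, and the alternatives spanned 0.0106 to 0.359. That scaling by library totals called 1 member where it called 3.64% of GeneIDs. The DESeq2 calls also rested on which hamsters were in: without SP-HT 10 DESeq2 called 0 members, without SP-HT 26 or without SP-NT 19 it called 1, *Hspa9*, and without SP-NT 38 it called 2. The calls over all GeneIDs were fewer in these fits too, at 568 of 13941 without SP-HT 10, 576 of 13625 without SP-HT 26, 644 of 14223 without SP-NT 19 and 507 of 13284 without SP-NT 38, against 1017 of 14615 with all 8 hamsters.

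**Figure D4:**
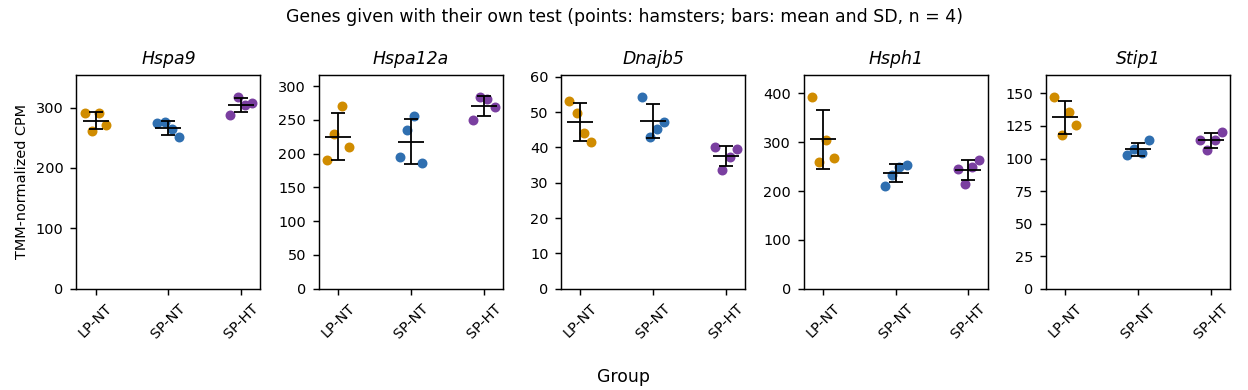
TMM-normalized CPM of the 5 genes given with their own test, in LP-NT, SP-NT and SP-HT (axes from 0), with points for hamsters, horizontal bars for means and whiskers for the SD of 4 hamsters. *Hspa9* lies higher in SP-HT (288 to 317) than in SP-NT (250.5 to 276), *Dnajb5* lies lower (33.6 to 40.0 against 42.9 to 54.2), and *Hsph1* and *Stip1* reach their highest points in LP-NT 01.

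Correction for effective length, the mean length of the transcripts that a gene used in each sample, gave other calls in torpor. DESeq2 with these lengths again called 3 members (5.19% of GeneIDs called), but they were *Dnaja1*, *Hsf2* and *St13* in place of *Hspa9*, *Hspa12a* and *Dnajb5*. These 3 are named after their values were seen. Without lengths, DESeq2 gave them log2 fold changes of 0.14, 0.17 and 0.14, with adjusted p of 0.0705, 0.0797 and 0.133. Their log2 fold changes with lengths were 0.28, 0.17 and 0.17, with adjusted p of 0.00298, 0.0426 and 0.0476, and over all alternatives the adjusted p reached 0.347 for *Dnaja1*, 0.376 for *Hsf2* and 0.396 for *St13*. With lengths, DESeq2 gave *Hspa9* an adjusted p of 0.148, *Hspa12a* 0.0990 and *Dnajb5* 0.342, at log2 fold changes of 0.16, 0.28 and -0.18. No member was called by edgeR with these lengths, where the smallest adjusted p among them was 0.0706, and whether counts or length-corrected counts are nearer to the number of molecules was not tested.

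By family, most members lay slightly above 0 in torpor, and the members' medians in single hamsters overlapped between the groups. Of the 35 members, 25 had a log2 fold change above 0 and 10 below, with a median of 0.07 and a range of -0.38 to 0.31, where 49.4% of all GeneIDs were above 0 with a median of -0.00. The members' median had an SD of 0.08 on the log2 scale between hamsters of a group, taken with LP-NT included. That SD is no yardstick for torpor, since LP-NT is not part of this comparison. Set against the 11 other hamsters, the members' median was -0.07, -0.07, 0.04 and 0.00 in SP-HT 02, 10, 26 and 33. It was -0.08, -0.00, -0.13 and -0.06 in SP-NT 19, 36, 37 and 38, so the groups overlapped. Scaled by library totals, 19 were above 0 and 16 below with a median of 0.02, where the median of all GeneIDs moved with it to -0.05. Both HSP90 genes of the cytosol were above 0 under every scaling tried, and all 3 HSP110 genes were too apart from *Hsph1*, which turned below 0 with library totals. Of the 7 cochaperones, 6 were above 0, of which *Chordc1* and *Fkbp4* turned with library totals, and *Ppid* was below 0 but above it with effective lengths. Of the 4 cytosolic HSP40 genes, *Dnajb1*, *Dnajb4* and *Dnajb5* were below 0 and *Dnaja1* above under every scaling tried.

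The SP-HT and SP-NT hamsters did not overlap in CPM for 4 of the 35 members, near the background of 12.2% of all GeneIDs: *Hspa9*, *Hsp90ab1* and *Hsf2* were higher in all 4 torpid hamsters and *Dnajb5* was lower. In TPM the groups did not overlap for 4 members as well, beside 10.5% of GeneIDs: *Hsf2* again, *Dnaja1* and *St13*, which were higher in torpor, and *Dnajb4*, which was lower. For *St13* the margin was narrow, with a lowest SP-HT value of 229.23 TPM and a highest SP-NT value of 229.06 TPM. For *Dnajb4* it was narrow too, with a highest SP-HT value of 32.42 TPM and a lowest SP-NT value of 32.5 TPM. The inducible genes *Hspa1a*, *Dnajb1*, *Hspb1*, *Hsph1* and *Hsp90aa1* overlapped between the groups. Precision was good for most members: for 30 of 35, the 95% interval of the difference lay within 0.5 on either side of 0 on the log2 scale, as it did for 75.8% of GeneIDs at like levels. The intervals that passed that bound were those of *Hspa1b*, *Cryab* and *Hspe1*, and of *Hspa12a* and *Dnajb5* on the side of their own direction. Passing it depends on the size of the difference as well as on the width of the interval.

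**Figure D5:**
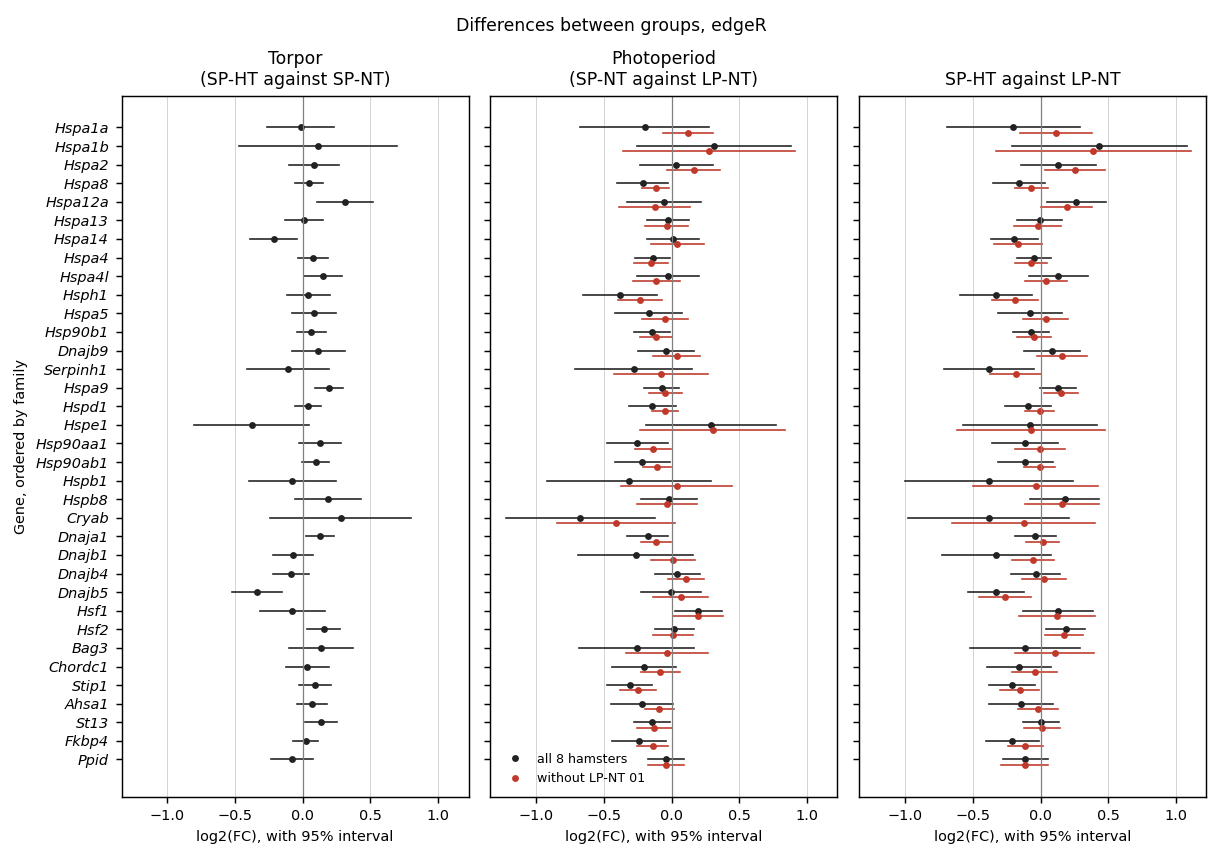
Log2 fold change with 95% interval (edgeR) of each of the 35 genes in torpor, photoperiod and SP-HT against LP-NT, with black for all 8 hamsters and red for the fit without LP-NT 01. In torpor most intervals lie within 0.5 of 0, and in the panels that use LP-NT the red points lie closer to 0 than the black ones for *Hspb1*, *Dnajb1*, *Cryab* and *Hsph1*.

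Photoperiod was compared at normal body temperature (SP-NT against LP-NT) to ask what differs after adaptation to short days. In short days most chaperone transcripts had slightly smaller means, none was called, and the size of this depended on LP-NT 01. In all 8 hamsters no member was called by edgeR, where 6 of 16199 GeneIDs were (0.0370%), and none by DESeq2, where 0.212% were. Without adjustment, 12 of 35 members had p under 0.05, 11 lower and 1, *Hsf1*, higher, where 4.84% of GeneIDs did. All members had a median log2 fold change of -0.14 and a range of -0.67 to 0.31, with 28 below 0 and 7 above, beside a median of -0.00 over all GeneIDs.

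Without LP-NT 01, the median log2 fold change of the members was -0.05 and the range -0.41 to 0.30, with 23 below 0 and 12 above. The SD of 0.08 of the members' median between hamsters of a group is no yardstick here, since it was not taken without LP-NT 01. Set against the mean of the other hamsters, the members' median was -0.05, 0.05 and -0.01 in LP-NT 02, 03 and 05. In SP-NT it lay between -0.13 and -0.00, so the groups overlapped without LP-NT 01 too. Neither tool called a member then, with 0.0496% of GeneIDs called by edgeR and 0.211% by DESeq2, and 9 members had an unadjusted p under 0.05 in edgeR, 8 lower and 1 higher, where 4.49% of GeneIDs did. *Hspa1a*, *Hspb1*, *Dnajb1*, *Dnajb5* and *Dnajb9* were below 0 with LP-NT 01 and above 0 without it. *Hsph1* and *Hsp90aa1*, which are inducible too, were below 0 with and without it, as were *Cryab*, *Bag3* and *Serpinh1*.

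All 7 cochaperones, all 3 HSP110 genes and both cytosolic HSP90 genes were lower in SP-NT with and without LP-NT 01 and under every scaling tried, but *Hspa4l* of the HSP110 genes turned above 0 without LP-NT 03, without LP-NT 05 and without SP-NT 19. The groups did not overlap in CPM for 6 of 35 members, all lower in SP-NT, where 3.49% of GeneIDs did not overlap: *Hspa8*, *Hsp90aa1*, *Hsp90ab1*, *Hsph1*, *Stip1* and *Fkbp4*. Leaving out a hamster cannot make such groups overlap, and without LP-NT 01 the count was 6 as well, where 5.82% of GeneIDs did not overlap. The related cochaperones *St13*, *Ahsa1*, *Ppid* and *Chordc1*, and *Dnaja1*, overlapped between the groups. The 4 genes of the endoplasmic reticulum were all lower in SP-NT, but *Dnajb9* turned above 0 without LP-NT 01. Of the heat shock factors, *Hsf1* was higher in SP-NT, and *Hsf2* was near 0, turning below it with effective lengths, without LP-NT 02 and without SP-NT 37.

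*Stip1* and *Hsph1* had the smallest unadjusted p of the members in this comparison. For *Stip1*, all 4 SP-NT hamsters were below all 4 LP-NT hamsters, with a log2 fold change of -0.31 (SE 0.08, 95% interval -0.48 to -0.14) and an adjusted p of 0.739 in edgeR. DESeq2 gave an adjusted p of 0.0934, and the alternatives spanned 0.0124 to 0.994. The smallest of these came from DESeq2 without LP-NT 02, which called *Stip1* alone of the members, and 30 of 15177 GeneIDs in all. Without LP-NT 01 the log2 fold change of *Stip1* was -0.25, at an adjusted p of 0.726 in edgeR.

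For *Hsph1*, all 4 SP-NT hamsters were again below all 4 LP-NT hamsters, with a log2 fold change of -0.38 (SE 0.12, 95% interval -0.66 to -0.11) and an adjusted p of 0.913 in edgeR, and the alternatives spanned 0.171 to 1.00. Without LP-NT 01 its log2 fold change was -0.23, at an adjusted p of 0.996. The direction of these 2 genes thus did not hang on that hamster, while the size of the difference in *Hsph1* did in part. For 26 of 35 members the 95% interval lay within 0.5 on either side of 0 on the log2 scale, as for 77.9% of GeneIDs at like levels, and without LP-NT 01 for 32, beside 80.5%. The 9 members whose interval passed that bound in all 8 hamsters were *Hspa1a*, *Hspa1b*, *Hspb1*, *Cryab*, *Hspe1*, *Hsph1*, *Dnajb1*, *Bag3* and *Serpinh1*.

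SP-HT was also set against LP-NT, that is torpor in winter day length against normal body temperature in summer day length. This comparison shares SP-HT with the torpor comparison and LP-NT with the photoperiod comparison, and it joins temperature, day length and implantation, which cannot be told apart in it. No member was called by edgeR, where 221 of 16157 GeneIDs were (1.37%). DESeq2 called 1, *Dnajb5*, where 4.74% of GeneIDs were called. Without adjustment, 8 members had p under 0.05, 2 higher and 6 lower, where 15.1% of GeneIDs did. Of the 35 members, 10 were above 0 and 25 below, with a median log2 fold change of -0.09, where 49.8% of all GeneIDs were above 0 with a median of -0.00.

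For *Dnajb5* the log2 fold change was -0.33 (SE 0.09, 95% interval -0.54 to -0.12), with all 4 SP-HT hamsters below all 4 LP-NT hamsters and an adjusted p of 0.127 in edgeR. DESeq2 gave -0.32 and an adjusted p of 0.0481, and the alternatives spanned 0.0174 to 0.531. Without LP-NT 01 the log2 fold change was -0.26, at an adjusted p of 0.175 in edgeR and 0.115 in DESeq2. Its DESeq2 call in all 8 hamsters was lost without LP-NT 01, without LP-NT 02, without LP-NT 03 and without each SP-HT hamster in turn. It was also lost with effective lengths, where DESeq2 gave -0.20 and an adjusted p of 0.531.

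SP-HT and LP-NT did not overlap in CPM for 4 of 35 members, beside 10.6% of GeneIDs: *Hsf2* was higher in SP-HT, and *Dnajb5*, *Hspa14* and *Serpinh1* were lower. Without LP-NT 01, which cannot lower this count, it was 4 beside 15.9% of GeneIDs. Without that hamster, 15 members were above 0 and 20 below, with a median of -0.01. Then 0 members were called by edgeR (1.24% of GeneIDs) and 0 by DESeq2 (4.32%), and 7 had an unadjusted p under 0.05 (15.8%), 4 higher and 3 lower.

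Among single hamsters, LP-NT 01 stood furthest from the rest across these genes. This departure was not ranked against the differences between groups, which are another measure. LP-NT 01 had the highest CPM of the 12 samples for 19 of the 35 members (54.3%), beside the 20.9% of all GeneIDs, and by TPM for 20. Against the mean CPM of LP-NT 02, 03 and 05, it was 2.09-fold for *Hspb1*, 1.97-fold for *Hspa1a*, 1.83-fold for *Dnajb1*, 1.78-fold for *Cryab*, 1.65-fold for *Bag3* and 1.58-fold for *Serpinh1*. These 6 members were above the 95th percentile of the same ratio over 16106 GeneIDs. They are named after their values were seen, and *Hspb8*, the other small heat shock protein, was at 0.946-fold.

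The next members in LP-NT 01 were *Hsph1* at 1.41-fold, *Ahsa1* and *Hspa2* at 1.36-fold, and *Hspa5* and *Chordc1* at 1.33-fold. *Hsp90aa1* was at 1.32-fold and *Hsp90ab1* at 1.299-fold. In the other direction, *Hspa4l* was at 0.757-fold and *Hspa12a* at 0.806-fold, and *Hsf1* and *Hsf2* were near the other LP-NT hamsters at 0.981-fold and 0.962-fold. In all, 26 members were above the mean of the other LP-NT hamsters and 9 below, with a median log2 ratio of 0.24 beside -0.01 over all GeneIDs. What set this hamster or its library apart was not tested.

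Set against the mean of the 11 other hamsters, the median log2 ratio of the 35 members was 0.28 in LP-NT 01 and between -0.13 and 0.05 in each of the others. The next highest were LP-NT 03, with 25 members above that mean, and SP-HT 26, with 20. The lowest was SP-NT 37, with 7 members above it and 9 members at their lowest of the 12 samples. Over the 12 samples, the highest CPM of a member was a median of 1.49 times its lowest, beside 1.45 times over 13858 GeneIDs at like levels.

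Effective length moves when a gene shifts between its transcripts, but not only then. Members had between 1 transcript (*Hspb1*, *Hspb8*) and 27 transcripts (*Hspa9*) in the assembly, with a median of 8 beside 6 over all GeneIDs. The effective length of *Hspb1* still ranged from 676 to 705 bases over the 12 samples and that of *Hspb8* from 2371 to 2400.0 bases, and both are among the members tested in torpor. In torpor 32 members could be tested for effective length with limma and 0 were called, where 0.113% of 12346 GeneIDs were; 1 had an unadjusted p under 0.05, beside 12.5% of GeneIDs. That was *Hspa12a*, with a mean effective length of 3955 bases in SP-HT and 3867 bases in SP-NT. In photoperiod 28 members were tested and 0 called by limma, where 0 of 11992 GeneIDs were called, with 0 at an unadjusted p under 0.05, beside 4.58% of GeneIDs. Without LP-NT 01 it was again 0 called and 0 at an unadjusted p under 0.05, beside 4.62%.

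In SP-HT against LP-NT, limma called the effective length of 0 of 32 members (0.0976% of GeneIDs), and 1 had an unadjusted p under 0.05, beside 11.9% of GeneIDs. Without LP-NT 01 it again called 0 (0.0489% of GeneIDs), with 3 at an unadjusted p under 0.05, beside 10.5% of GeneIDs: *Dnajb5*, *Ppid* and *Hspa12a*. In all 8 hamsters it was *Dnajb5*, at a mean of 4437 bases in SP-HT and 4920.3 bases in LP-NT, with 4974 bases in SP-NT. Its mean effective length was thus shortest in the group with its lowest mean CPM, but the shortest of the 12 hamsters was SP-NT 36 at 4104 bases, and in torpor limma gave an unadjusted p of 0.117. Its level in TPM, which divides by that length, was closer between groups (22.9 ± 2.45 in SP-HT, 26.7 ± 2.53 in SP-NT and 26.5 ± 3.79 in LP-NT; SD, n = 4) than its CPM. In TPM the torpid hamsters ranged from 20.4 to 26.1 and overlapped both other groups.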

How the data were processed

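Reads of 12 hypothalamus libraries were processed by the authors: per the submitters' processing notes, with FastQC 0.11.9, Trim Galore 0.6.6, a pooled de novo assembly, Bowtie 1.3.0 and RSEM 1.3.1, with transcripts grouped by the mouse GeneID of their best protein hit. The deposited tables give, per sample and GeneID, the expected count, which is not normalized. The deposited tables also give TPM, normalized by effective length and to a fixed total per sample, and the effective length in bases.

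Expected counts were rounded to whole numbers, which moves a count by at most 0.5, and each comparison used its own 8 samples and every GeneID whose counts in them came to 10 or more, in the edgeR 4.0.16 quasi-likelihood test with TMM factors in R 4.3.3. P-values were adjusted over all GeneIDs tested by Benjamini-Hochberg, at 0.05. Log2 effective lengths were tested with limma 3.58.1, for GeneIDs with a mean of at least 50 counts and a length that varied by more than a tolerance of 1%. That tolerance acts on the quantity tested, so GeneIDs of near-constant length, *Hspa2* among them, were left out. Alternatives were DESeq2 1.42.0 without and with effective lengths, edgeR with length offsets, RLE factors or library totals, other filters, all 12 samples in 1 fit, limma with voom, sex as a covariate, and leaving out each hamster. Added after the data had been seen were leaving out each hamster in DESeq2 and in the summed TPM, the alternatives for medians, the overlap of groups in TPM, the counts of LP-NT 01, and the tests of effective length in the comparisons that use LP-NT. Code was tested on simulated data.

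The members and lists were chosen with earlier results of these data known. Given with their own test are members with an adjusted p under 0.05 in edgeR or DESeq2 in any comparison and, where a comparison had none, the 2 with the smallest edgeR p in it. Symbols of members come from the list of GeneIDs. Names of the neuropeptide genes were attached by matching values to the study's own table of chosen genes, for 55 of 66 names. Other chaperone and stress lists, cell type markers, cold-inducible genes and promoters were not analysed, because no table of gene names or sequences was at hand.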

Additional observations from a re-analysis of the deposited data

Results flagged for a closer look

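In 7 of the 108 sets of 4 hamsters examined (each of the 35 genes, and their sum, in each group, in TPM), 1 hamster lay far from the other 3 of its group relative to the group's whole range. Chance gives about 1 in 20 such sets, so a number of this size says nothing by itself. LP-NT 01 was the hamster in 3 of the 7. It was far above its group for *Hspa1a* (219.1 TPM, the others 106.2 to 125.1), for *Dnaja1* (279.9 TPM, the others 220.0 to 228.5) and for *Dnajb1* (85.3 TPM, the others 49.7 to 54.4).

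SP-HT 33 was far above the other torpid hamsters for *Hspa1a* (157.9 TPM, the others 108.6 to 114.4) and for *Hspa5* (469.9 TPM, the others 382.9 to 394.4). SP-NT 19, the hamster labelled male with at most 1 count in the male-specific records, was far below its group for *Hspa8* (1777 TPM, the others 1886 to 1898). SP-NT 37 was far below its group for *Hsp90ab1* (1029 TPM, the others 1052 to 1056), in a group where the values otherwise lay close together.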

How the results depend on the processing

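The count of members called in torpor was 0 in edgeR, 3 in DESeq2, 3 in DESeq2 with effective lengths (none shared with the former 3), 1 in edgeR with library totals, and between 0 and 1 when each hamster was left out in edgeR, with 1 without SP-NT replicate 37. In SP-HT against LP-NT it was 0 in edgeR, 1 in DESeq2 and 0 in DESeq2 with effective lengths. Without 1 hamster, the DESeq2 count was 1 without LP-NT 03, where it was *Hspa12a*, 1 without LP-NT 05, where it was *Dnajb5*, and 0 in the others. In photoperiod 1 fit called a member: DESeq2 without LP-NT 02 called 1, *Stip1*, and every other alternative tried called 0. The causes were not tested.

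The median log2 fold change of the members in photoperiod lay between -0.18 and -0.05 when each hamster was left out, with -0.051 without LP-NT replicate 01. The summed level of SP-HT was 9889 in TPM and 9197 in CPM, and that of SP-NT 9529 and 8677; the units differ. Without *Hsp90aa1*, the most abundant member in TPM, the sums were 7297 TPM in LP-NT, 6749.7 TPM in SP-HT and 6569 TPM in SP-NT. None of the genes given with their own test changed direction under any alternative tried in the comparison that it was named in.

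No paired analysis was possible because the hamsters of the groups are different animals. With 4 hamsters a group and *Hspa1b* and *Hspe1* at low counts, small differences in those genes were not detectable at this depth. The torpor directions rest on the sample labels.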
